A study of Homo sapiens with 6 samples.

Results

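The splicing factor genes described here are 42 genes for SR proteins, heterogeneous nuclear ribonucleoproteins (hnRNPs), proteins of the 3′ splice site and of the U1 and U2 particles, and the regulators MBNL1 and CELF1. They were listed by name and role, with earlier results of these data known, and each was read on the brightest of the probe sets annotated to it alone, by mean over all 6 arrays. Of the 42 genes, 40 were measured, among 11963 genes in all. SRSF2 and SRSF9 had only probe sets annotated to more than 1 gene (3 and 2 of them) and are given no value. The study compared senescent WI-38 cells that overexpressed RASv12 (3 samples) with growing wild-type WI-38 cells (3 samples). WI-38 is a diploid fibroblast strain from human fetal lung, and RASv12 is a RAS protein locked in its active state. All cells were kept at 3% oxygen, and infection used a retrovirus. RNA came from 1000000 cells per sample and passed through 2 rounds of amplification. The labels name neither the RAS gene nor an empty vector for the growing cells, so infection and RASv12 cannot be told apart if there was none. They also give Cy3 for RASv12 samples and Cy5 for control samples, which cannot be told apart from the groups if the dyes mattered. Nothing says that samples of a group were separate cultures, so the p-values rest on a spread that may be only technical.

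Splicing removes introns from the primary transcript in a particle, the spliceosome, that is built afresh on each intron. The U1 particle marks the 5′ splice site, SF1 and the U2AF dimer mark the branch site and the 3′ splice site, and the U2 particle with SF3A and SF3B then takes the branch site. SR proteins mostly bind exons and help the spliceosome to choose them, whereas many hnRNPs bind silencer elements and oppose that choice, so their balance sets which exons are kept. Lower transcript levels of several splicing factors have been described in senescent human fibroblasts, and PTBP1 is known as a regulator of the secretory phenotype of senescent cells.

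HRAS, the RAS gene used in many such models, had intensities of 816, 753 and 989.7 in RASv12 samples and 222, 189 and 234 in control samples, and the groups did not overlap. All 8 fibroblast markers examined lay above the brightest low bacterial control on all 6 arrays, and their summed intensity was 7531 to 8831 in RASv12 samples and 18168 to 20560.4 in control samples. Of 4 epithelial markers, KRT18 lay above that level on all arrays and EPCAM and CDH1 on none, and neither of 2 measured leukocyte markers nor any of 3 endothelial markers did so on all arrays. The summed intensity was 132 to 167 in RASv12 and 151 to 164 in control samples for the epithelial list, 23.1 to 60.2 in RASv12 and 20.7 to 29.9 in control samples for the endothelial list, and 6.13 to 21.7 in RASv12 and 2.99 to 4.72 in control samples for the leukocyte list. The 5′ signal divided by the 3′ signal was 1.15 to 1.24 in RASv12 and 0.999 to 1.18 in control samples for GAPDH, and 0.890 to 0.956 in RASv12 and 0.713 to 0.959 in control samples for ACTB. The part of these values in the results below was not tested. In bulk samples, fewer cells of a type and less RNA per cell cannot be told apart.

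In the reported fit, on the brightest probe set of each gene, the splicing factor genes called were lower in RASv12 cells, except SNRPB. A gene that was not called is not thereby shown to be unchanged. Of the 40 measured genes, 18 fell and 1 rose at an adjusted p under 0.05, and 21 were not called, where 15.3% of all 11963 genes fell and 13.7% rose, and 29.0% were called in either direction. The falls thus made up 45% of the members and were modest in size, from 1.25-fold lower for HNRNPK to 2.20-fold lower for HNRNPA0 on the log2(value + 16) scale, which understates the change of dim genes. The median log2 change (RASv12 minus control) was -0.39 over the 40 genes and 0.020 over all genes, and 32 of the 40 lay below 0. The shares of all genes include dim genes, which were called less often. Without the dimmer 50% of probe sets, 21 of the 40 fell and 2 rose, where 1744 of 6880 genes fell and 1570 rose. Tests were limma's moderated test, fitted over all probe sets and adjusted by Benjamini-Hochberg over all genes, with 3 samples per group throughout.

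The count of falls depended on how the arrays were scaled. Spiked hybridization controls were dimmer on the RASv12 arrays by 0.34 on the log2 scale, in 18 of 18 probe sets, and scaling to them moved the median of all genes to 0.20. The median of the splicing factors was then -0.049, with 6 of 40 lower and 6 higher, where 8.67% of all genes fell and 23.5% rose. HNRNPA0, HNRNPH3, HNRNPA1, HNRNPA2B1, SRSF6 and SNRPA were the 6 that fell under that scaling, and they were called lower under all 19 alternative settings tried. SNRPB, SF3A1, U2AF2, HNRNPAB, HNRNPF and SF3B1 were the 6 called higher.

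**Figure D1:**
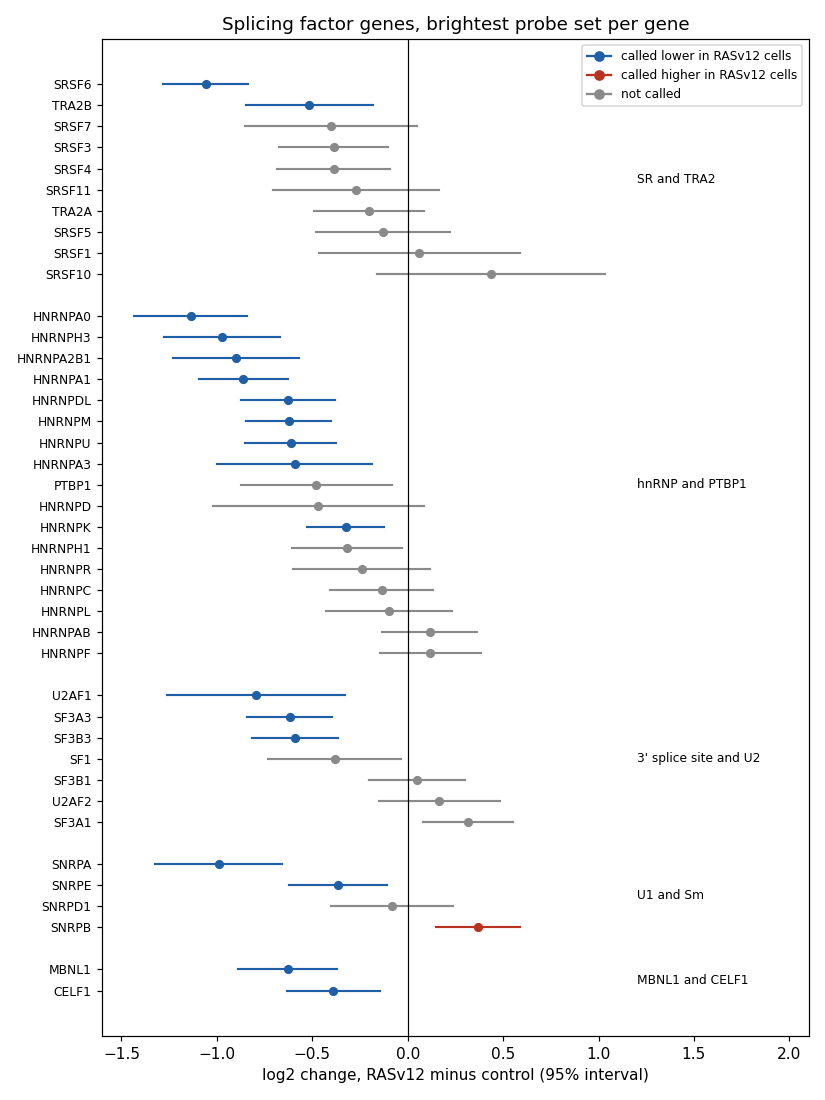
Log2 change (RASv12 minus control) of the 40 measured splicing factor genes on their brightest probe set, with 95% intervals from the fit, ordered within each role. Blue marks the 18 genes called lower in RASv12 cells, red the 1 called higher (SNRPB) and grey the 21 not called. Among the 17 measured hnRNP genes 9 fell, where 15.3% of all genes fell.

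**Figure D2:**
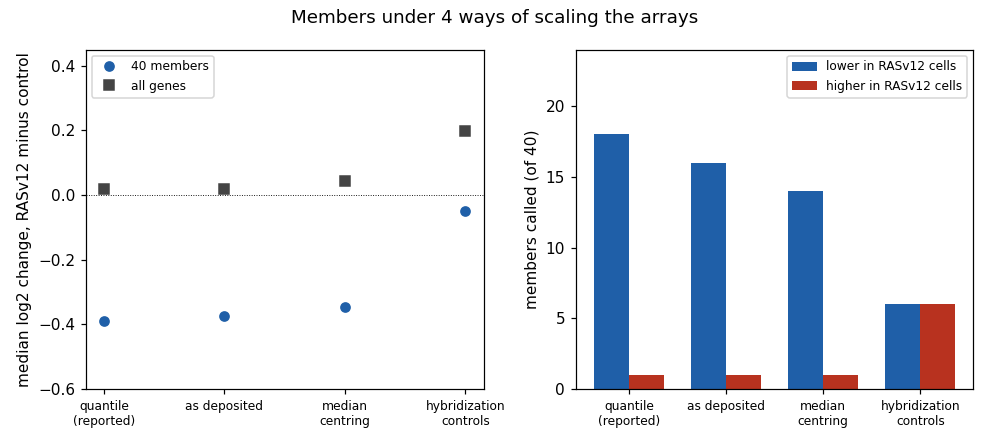
Left, median log2 change (RASv12 minus control) of the 40 members (circles) and of all 11963 genes (squares) under 4 ways of scaling the arrays. Right, number of members called lower or higher, which is 18 and 1 with quantile normalization and 6 and 6 with scaling to the hybridization controls, while the members' median lies below that of all genes under each of the 4.

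Promoters are printed for the 4 largest falls among genes with 1 promoter in the RefSeq table (GRCh38.p14) and for the 1 gene that rose, as examples of the start regions of genes that moved together and of one that moved the other way. Each runs 5′ to 3′ on the gene's strand from 250 bases before the annotated start to 50 after it. Capitals mark matches on either strand to the short motifs given below, each named for a factor or element, except TATAAA, which was not marked.
HNRNPA0, chr5:137754314-137754613, minus strand: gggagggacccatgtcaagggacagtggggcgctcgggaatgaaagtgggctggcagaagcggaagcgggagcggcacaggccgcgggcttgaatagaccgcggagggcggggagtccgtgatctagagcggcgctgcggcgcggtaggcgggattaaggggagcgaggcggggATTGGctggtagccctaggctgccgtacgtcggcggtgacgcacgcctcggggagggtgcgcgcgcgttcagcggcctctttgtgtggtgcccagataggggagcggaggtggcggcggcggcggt
SRSF6, chr20:43457646-43457945, plus strand: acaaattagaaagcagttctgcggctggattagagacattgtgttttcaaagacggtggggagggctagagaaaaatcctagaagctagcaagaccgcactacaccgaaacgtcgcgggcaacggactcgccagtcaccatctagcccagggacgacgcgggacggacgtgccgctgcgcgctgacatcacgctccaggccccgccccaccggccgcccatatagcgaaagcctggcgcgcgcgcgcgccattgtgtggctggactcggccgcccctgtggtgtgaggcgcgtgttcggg
SNRPA, chr19:40750953-40751252, plus strand: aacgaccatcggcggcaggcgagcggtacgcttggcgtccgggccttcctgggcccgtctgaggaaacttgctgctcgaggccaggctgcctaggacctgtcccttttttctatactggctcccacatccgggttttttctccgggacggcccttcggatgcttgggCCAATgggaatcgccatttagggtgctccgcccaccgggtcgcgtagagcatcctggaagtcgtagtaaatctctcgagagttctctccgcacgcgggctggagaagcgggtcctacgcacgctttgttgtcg
HNRNPA2B1, chr7:26200697-26200996, minus strand: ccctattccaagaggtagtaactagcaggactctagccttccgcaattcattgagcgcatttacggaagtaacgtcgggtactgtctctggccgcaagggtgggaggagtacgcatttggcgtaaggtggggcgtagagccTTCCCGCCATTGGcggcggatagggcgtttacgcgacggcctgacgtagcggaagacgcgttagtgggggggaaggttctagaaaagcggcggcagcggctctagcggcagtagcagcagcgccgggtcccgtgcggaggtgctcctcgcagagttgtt
SNRPB, chr20:2470740-2471039, minus strand: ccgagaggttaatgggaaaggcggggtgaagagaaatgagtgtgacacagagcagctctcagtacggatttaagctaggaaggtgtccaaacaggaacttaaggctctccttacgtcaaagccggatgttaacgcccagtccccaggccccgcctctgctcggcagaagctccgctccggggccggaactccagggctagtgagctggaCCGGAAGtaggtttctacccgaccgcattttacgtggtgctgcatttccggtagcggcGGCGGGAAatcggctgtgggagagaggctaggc
The capitals are the NF-Y motif CCAAT in HNRNPA0 and SNRPA, CCAAT directly beside the E2F motif GGCGGGAA in HNRNPA2B1, and the ETS motif CCGGAAG and GGCGGGAA in SNRPB. The SRSF6 promoter held no match in this window. The RefSeq table held 55 promoters of 36 measured members, some of them neighbouring starts of 1 gene. GGCGGGAA lay in 16.4% of these 55, against 3.16% of all 35116 promoters, the E-box CACGTG in 16.4% against 7.26%, CCGGAAG in 20% against 10.3%, the NRF1 motif in 14.5% against 5.78%, CCAAT in 38.2% against 34.6%, the YY1 motif AAGATGGC in 1.82% against 2.89% and the TATA motif TATAAA in 10.9% against 11.5%. Of the 55, 26 belonged to genes that fell and 29 to other members. GGCGGGAA lay in 19.2% of the 26 and 13.8% of the 29, and CACGTG in 23.1% and 10.3%. CCGGAAG lay in 11.5% of the 26 and 27.6% of the 29, and the NRF1 motif in 7.69% and 20.7%. CCAAT lay in 38.5% and 37.9%, AAGATGGC in 0% and 3.45%, and TATAAA in 0% and 20.7%. These differences were not tested. The members' promoters had a median GC content of 64%, against 58.7% over all promoters, and motifs rich in C and G match more often in such sequence. A match describes letters and is not a bound site.

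The SR and TRA2 proteins bind exonic enhancers through RNA recognition motifs and carry arginine-serine tails. Of 10 measured, 2 fell (20%), none rose and 8 were not called, with a median log2 change of -0.33. The share of falls was near that of all genes, of which 15.3% fell and 13.7% rose. At an unadjusted p under 0.05, 4 of the 10 were lower and none was higher. For all genes the share at an unadjusted p was not counted, for this or the unadjusted counts below. SRSF6, an SR protein that promotes exon inclusion, had intensities of 173, 178 and 197 in RASv12 samples and 411, 384 and 398 in control samples. Every RASv12 sample lay far below every control sample, with a fall of 1.06 on the log2 scale (SE 0.094, adjusted p = 3.2e-04). This was the smallest adjusted p among the 40 genes. A second, dimmer SRSF6 probe set had mean intensities of 44.7 in RASv12 cells and 49.3 in control cells and a log2 change of -0.040 (adjusted p = 0.93 over all probe sets).

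TRA2B, a partner of SR proteins on purine-rich enhancers, had intensities of 612, 658 and 554 in RASv12 samples and 1027, 789 and 792 in control samples. The groups did not overlap, although control replicate 1 stood well above the other 2 controls. It fell by 0.52 (SE 0.14, adjusted p = 0.033), a call lost in 11 of 19 alternative settings, each of the 6 omissions of a sample among them.

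SRSF3, which also controls mRNA export, came close to the threshold. Its intensities were 724, 640.4 and 668 in RASv12 samples and 845, 1011 and 796 in control samples, without overlap, at -0.39 on the log2 scale, adjusted p = 0.051. It was called lower in 5 of 19 alternative settings, and its dimmest of 3 probe sets was called lower at -0.62. SRSF4, another SR protein of the same build as SRSF6, stood at 194, 156 and 174 in RASv12 samples and 207, 265 and 231 in control samples. These too did not overlap, at -0.39 and adjusted p = 0.058. SRSF7, the last SR gene whose groups were apart, reached 497, 492 and 406 in RASv12 samples and 542, 825 and 503 in control samples, and control replicate 2 was far above its fellows. Its log2 change was -0.40 with an interval of -0.85 to 0.049.

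SRSF1, the founding SR protein and a splicing factor with oncogenic activity, depended on the probe set. On the brightest one its intensities were 639, 683 and 619 in RASv12 samples and 416, 759 and 718 in control samples, and the low control replicate 1 made the groups overlap. That probe set gave a log2 change of 0.061 with a 95% interval of -0.46 to 0.59. Another SRSF1 probe set had means of 176 in RASv12 cells and 345 in control cells and was called lower by 0.92 (adjusted p = 0.011), and a further one was at -0.35 with adjusted p = 0.059. The other SR and TRA2 genes were SRSF5 (-0.13), SRSF10 (0.44), SRSF11 (-0.27) and TRA2A (-0.20), none called on the brightest probe set and all with overlapping groups. The interval of SRSF10, a splicing repressor when dephosphorylated, ran from -0.16 to 1.03, wide enough to hold a doubling.

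The hnRNP genes held 9 of the 18 falls. Of 17 measured, PTBP1 included, these 9 fell, none rose and 8 were not called (at an unadjusted p under 0.05, 11 lower and none higher), with a median log2 change of -0.48. Over all genes 15.3% fell and 13.7% rose. All 4 genes of the A family, HNRNPA0, HNRNPA1, HNRNPA2B1 and HNRNPA3, were lower in RASv12 cells. HNRNPA0, an hnRNP that also binds AU-rich mRNA, had intensities of 225, 216 and 169 in RASv12 samples and 484, 439 and 458 in control samples. No RASv12 sample came near a control sample, and the fall of 1.14 (SE 0.13, adjusted p = 8.3e-04) was the largest of the 40 genes. Its second probe set, at means of 95.6 in RASv12 cells and 89.0 in control cells, did not share it (0.14, adjusted p = 0.45).

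HNRNPA1, the classic antagonist of SRSF1 at exonic silencers, read 287, 263 and 284 in RASv12 samples and 540.1, 513 and 478 in control samples. The groups were well apart, with a fall of 0.86 (SE 0.098, adjusted p = 9.6e-04), and both of its other probe sets, which were dim, were called lower as well. HNRNPA1 has many processed copies in the genome, and 2 further probe sets annotated to it together with such copies were not used, so its values are uncertain to the extent that copies share the probes. HNRNPA2B1, its close relative, read 525, 648 and 551 in RASv12 samples and 1241, 1033 and 951 in control samples. It fell by 0.90 (SE 0.14, adjusted p = 0.0037) on its only probe set, without overlap.

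HNRNPA3 read 113, 128 and 81.8 in RASv12 samples and 188, 162 and 165 in control samples, a fall of 0.59 (SE 0.17, adjusted p = 0.041). RASv12 replicate 3 was the lowest of all, and the call was lost in 8 of 19 alternative settings. The other 2 HNRNPA3 probe sets showed larger falls, of 1.61 and 1.26 (adjusted p = 9.4e-04 and 0.0021), and 3 more that are annotated to a pseudogene too were not used.

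HNRNPH3, of the family that binds G-rich elements, had intensities of 184, 131 and 159 in RASv12 samples and 313, 345 and 308 in control samples. It fell by 0.97 (SE 0.13, adjusted p = 0.0018), and its 4 probe sets were each called lower, from -1.07 to -0.87. Its relatives HNRNPH1 (-0.32, interval -0.61 to -0.028) and HNRNPF (0.12, interval -0.15 to 0.38) were not called, and the difference between them and HNRNPH3 was not tested. HNRNPM, which binds GU-rich introns, read 649.7, 546 and 558 in RASv12 samples and 890.3, 891 and 899.9 in control samples. The controls were nearly equal and far above every RASv12 sample, a fall of 0.62 (SE 0.094, adjusted p = 0.0032).

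HNRNPU, a scaffold protein that ties chromatin and RNA together, read 886, 822 and 888 in RASv12 samples and 1237, 1267 and 1485 in control samples, a fall of 0.61 (SE 0.10, adjusted p = 0.0046). Its other 2 probe sets, at -0.29 and 0.24, were not called. HNRNPK, which binds C-rich RNA and DNA, read 951, 884 and 909 in RASv12 samples and 1101, 1141 and 1137 in control samples. The groups were tight and did not overlap, with a fall of 0.33 (SE 0.085, adjusted p = 0.028), the smallest among the falls. The call was lost with its direction kept in 11 of 19 alternative settings, and the direction turned with scaling to the hybridization controls, to 0.038. A second HNRNPK probe set had means of 596 in RASv12 cells and 667 in control cells, with overlapping groups. It was at -0.18 and not called (adjusted p = 0.30 over all probe sets).

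HNRNPD, known as AUF1 for its part in the decay of AU-rich mRNAs such as those of cytokines, has a close relative in HNRNPDL. HNRNPDL read 375, 404 and 410.2 in RASv12 samples and 629, 643 and 566 in control samples, a fall of 0.63 (SE 0.10, adjusted p = 0.0047). Of its 5 probe sets 4 were called lower, by up to 1.06, and the other lay within the low bacterial controls. HNRNPD was not called on its brightest probe set, where it read 559, 492 and 895 in RASv12 samples and 794, 925 and 878 in control samples. RASv12 replicate 3 was as high as the controls there, which made the groups overlap (-0.47, interval -1.02 to 0.083). Of the other 5 HNRNPD probe sets 4 were called lower, from -1.08 to -0.65, and HNRNPD was called lower in 4 of 19 alternative settings: with the mean of all its probe sets, with _at probe sets preferred, without _x_at probe sets, which can match other transcripts, and without RASv12 replicate 3.

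PTBP1, which represses exons beside pyrimidine tracts, read 827, 545 and 537 in RASv12 samples and 847, 815 and 938 in control samples. RASv12 replicate 1 lay within the control range and the other 2 RASv12 samples lay below it, for a log2 change of -0.48 (SE 0.17, interval -0.87 to -0.085, adjusted p = 0.074). PTBP1 was called lower without RASv12 replicate 1, with trend and robust moderation, and without the dimmer 50% of probe sets. Only 1 PTBP1 probe set was annotated to it alone, and 5 annotated also to a microRNA gene were not used. The remaining hnRNP genes, HNRNPC (-0.14), HNRNPL (-0.098), HNRNPR (-0.24) and HNRNPAB (0.12), were not called and their groups overlapped. All 4 probe sets of HNRNPC, an hnRNP of the uridine-rich tracts, lay between -0.14 and 0.074.

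**Figure D3:**
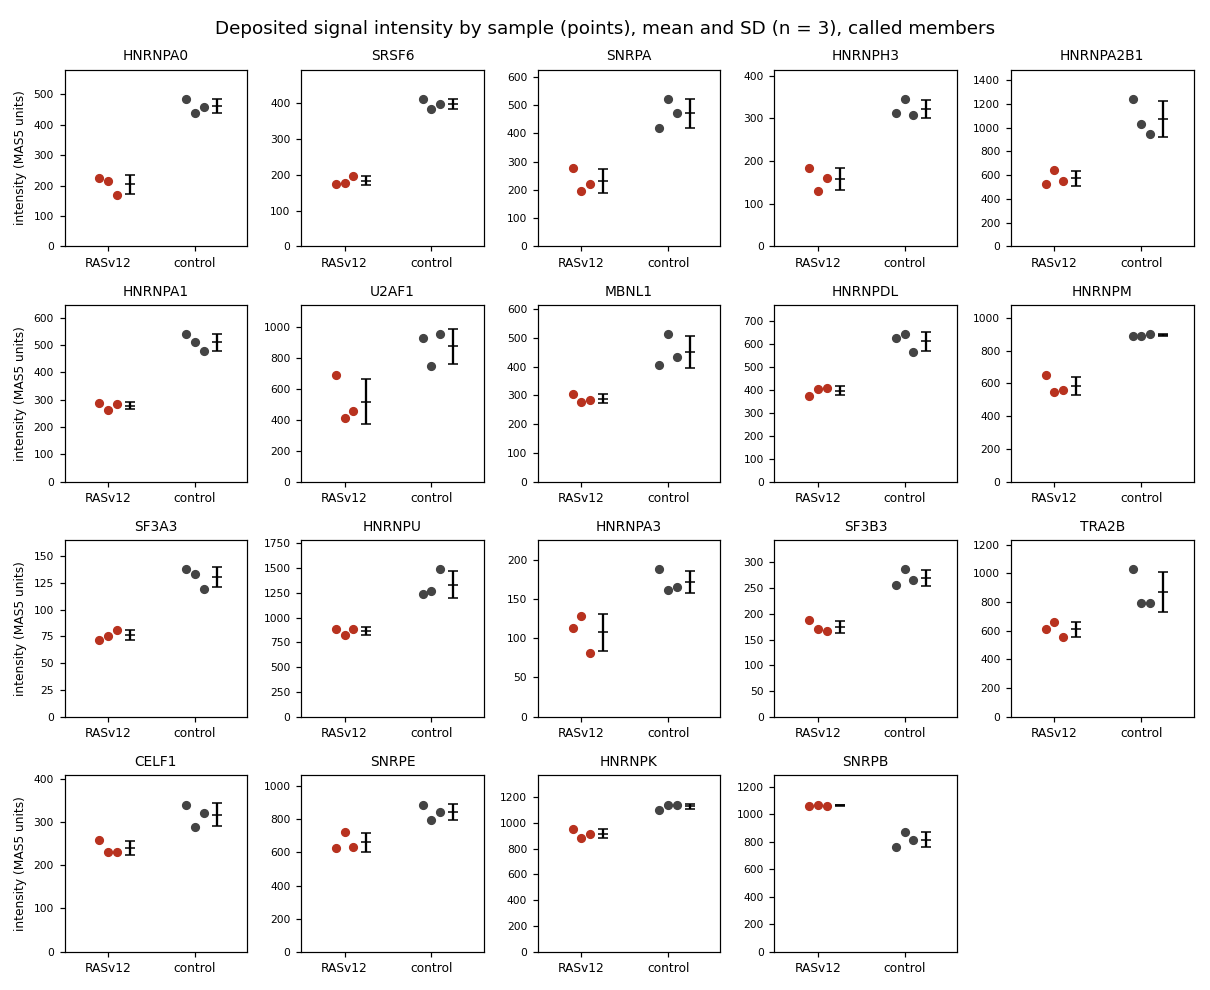
Deposited signal intensity (vertical axes, from 0) of the 19 called splicing factor genes in each of the 3 RASv12 samples (red, left) and 3 control samples (grey, right), with mean and SD beside the points, ordered by log2 change. The groups do not overlap in any of the 19, which were called on these same samples, and SNRPB is the one whose RASv12 samples lie above its controls.

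The groups of intensities were apart in all 18 genes that fell. These genes were called on the same samples, which favours groups that are apart, so this is not separate support. Over the 40 genes, every RASv12 sample lay below every control sample in 21 and above every control sample in 2, where 21.9% and 19.7% of all genes did so. The 4 genes with groups apart but no call were SRSF3, SRSF4, SRSF7 and SF3A1.

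Genes for proteins that define the 3′ splice site and the U2 particle had log2 changes on both sides of 0, with calls only among the falls. Of 7 measured, 3 fell, none rose and 4 were not called (at an unadjusted p under 0.05, 4 lower and 1 higher), with a median log2 change of -0.38. The shares over all genes were 15.3% lower and 13.7% higher. U2AF1, the small U2AF subunit that reads the AG at the intron's end, had intensities of 686, 409 and 456 in RASv12 samples and 926, 745 and 952 in control samples. RASv12 replicate 1 came close to the lowest control without reaching it, and the fall was 0.80 (SE 0.20, adjusted p = 0.023), lost in 6 of 19 alternative settings. U2AF2, the large subunit that binds the pyrimidine tract, was at 0.17 (interval -0.15 to 0.48) on its brightest probe set and was called higher on another, at 0.91 (means of 106 in RASv12 cells and 52.2 in control cells, adjusted p = 0.0015). The difference between the subunits was not tested.

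SF3A3, a subunit of the SF3A complex that matures the U2 particle, read 71.8, 75.3 and 81.2 in RASv12 samples and 137, 133 and 119.6 in control samples. The fall was 0.62 (SE 0.093, adjusted p = 0.0033) with groups well apart. SF3B3, a scaffold subunit of SF3B, read 188, 169.5 and 166 in RASv12 samples and 256, 286 and 265 in control samples, a fall of 0.59 (SE 0.095, adjusted p = 0.0042). SF3A1, a partner of SF3A3 in the same complex, read 267, 272 and 275 in RASv12 samples and 214, 233 and 193 in control samples, the other way round. Its groups were apart, at a difference of 0.32 on the log2 scale and adjusted p = 0.052, and 4 of 19 alternative settings called it higher. SF3B1, the branch site subunit often mutated in blood cancers, was at 0.048 on its brightest probe set (interval -0.21 to 0.30) and at 0.28 to 0.63 on its other 3, none called. SF1, the branch site binding protein, was at -0.38, adjusted p = 0.10.

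Of 4 genes for U1 and Sm proteins, 2 fell, 1 rose and 1 was not called, where 15.3% of all genes fell and 13.7% rose. SNRPA, which encodes the A protein of the U1 particle, had intensities of 276, 196 and 222 in RASv12 samples and 420.1, 521 and 473 in control samples. It fell by 0.99 (SE 0.14, adjusted p = 0.0024), 1.99-fold lower, with groups well apart. SNRPE, a subunit of the Sm ring that all major spliceosomal particles except U6 share, read 624, 723 and 633 in RASv12 samples and 889, 793 and 843 in control samples. The groups did not overlap, but the fall of 0.36 (SE 0.11, adjusted p = 0.044) was lost with its direction kept in 12 of 19 alternative settings and turned, without a call, in 1 more. Adjusted over all probe sets this SNRPE probe set missed the threshold (adjusted p = 0.050), and a dimmer one was at 0.26 and not called. SNRPB, which encodes the SmB proteins of the same ring, read 1059.6, 1070.0 and 1062 in RASv12 samples and 759, 871 and 815 in control samples. The RASv12 samples were nearly equal and all above the controls, a rise of 0.37 (SE 0.092, adjusted p = 0.025). A second SNRPB probe set was at -0.18 and not called, and the call was lost in 7 other settings, among them the omission of control replicate 1 or 3 or of RASv12 replicate 2 or 3. SNRPD1, another ring subunit, was at -0.082 (interval -0.40 to 0.24).

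MBNL1 and CELF1 are regulators that oppose each other at many developmentally controlled exons, and both fell, where 15.3% of all genes fell. MBNL1 read 306, 278 and 284 in RASv12 samples and 407, 513 and 435 in control samples, a fall of 0.63 (SE 0.11, adjusted p = 0.0056), and a second probe set fell by 0.68. A dimmer MBNL1 probe set, at means of 69.0 in RASv12 cells and 65.6 in control cells, was at 0.10 and not called, and another lay within the low bacterial controls. The MBNL1 call was lost in 3 of 19 alternative settings, the mean of all its probe sets among them. CELF1 read 259, 230.3 and 230.3 in RASv12 samples and 340.1, 288 and 320.3 in control samples, a fall of 0.39 (SE 0.10, adjusted p = 0.030). The call was lost in 9 of 19 alternative settings, 4 of the 6 omissions of a sample among them. Among its 4 probe sets 2 were called lower, while 1 at 0.47 (adjusted p = 0.074) had every RASv12 sample above every control sample.

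The 40 genes carried 107 probe sets, of which 38 were called lower and 2 higher when adjusted over all probe sets, where 13.0% of all 22215 probe sets were lower and 11.3% higher. Probe sets of 1 gene share its transcripts and are not replicates. Of the 32 genes with more than 1 probe set, none had probe sets called in opposite directions. Among the 19 called genes, 4 had a single probe set, 3 (HNRNPA1, HNRNPA3 and HNRNPH3) had all of several called, and 12 had at least 1 that was not. Among the 21 genes not called, 6 had another probe set that was: SRSF1, SRSF3, SRSF11, TRA2A and HNRNPD lower, and U2AF2 higher. The called probe sets of SRSF11 and TRA2A were near or below the highest low bacterial control, 28.0. Means in RASv12 and control cells were 12.0 and 28.9 for SRSF11, and 3.25 and 21.0 and 14.4 and 30.1 for TRA2A. Of the 107 probe sets, 9 lay within the low bacterial controls on all 6 arrays and carry little information. HNRNPM and HNRNPU lost their calls in 3 of 19 alternative settings each and SF3B3 in 2, among them settings that took other probe sets.

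**Figure D4:**
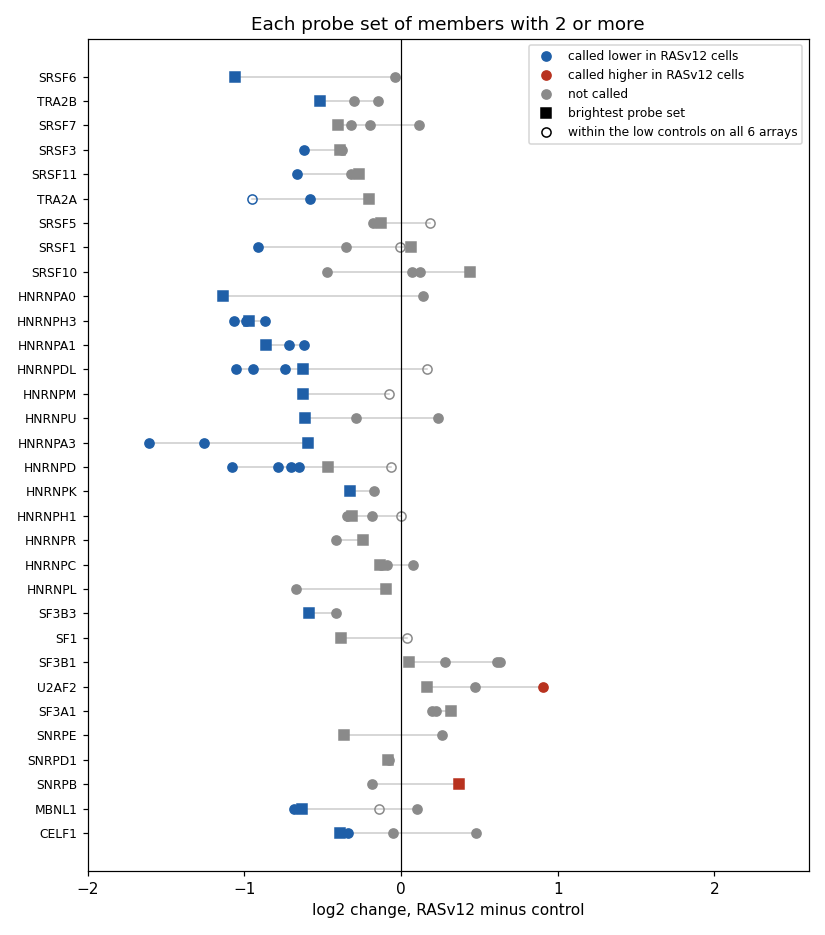
Log2 change (RASv12 minus control) of every probe set of the 32 splicing factor genes that have more than 1, with squares for the brightest, blue for called lower and red for called higher over all probe sets, and open symbols for probe sets within the low controls on all 6 arrays. HNRNPH3 probe sets lie close together, whereas those of HNRNPA0, SRSF6 and SRSF1 are spread over about 1 unit.

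The rest of the splicing machinery was read through 8 further lists of 151 genes, of which 122 were measured. Together 32 fell (26.2%), 11 rose (9.02%) and 79 were not called, with a median log2 change of -0.087, where 15.3% of all genes fell and 13.7% rose. Among brighter genes the share of falls was closer to that of all genes. Without the dimmer 50% of probe sets, 33 of 114 fell and 15 rose, where 1744 of 6880 genes fell and 1570 rose. With scaling to the hybridization controls 5 of the 122 were lower and 34 higher, where 8.67% of all genes were lower and 23.5% higher. The list nearest in function to the hnRNPs, other hnRNP-like proteins and alternative splicing regulators, had 18 of 33 lower, 1 higher and 14 not called, with a median of -0.41. MBNL2, a sister of MBNL1, read 35.3, 52.0 and 52.3 in RASv12 samples and 189.6, 177 and 182 in control samples and fell by 1.64 (SE 0.11, adjusted p = 1.1e-04). CIRBP, a cold-inducible RNA-binding protein, fell by 1.26 (adjusted p = 2.4e-04), and SFPQ, a paraspeckle protein that also acts in splicing, by 0.96 (adjusted p = 4.1e-04). None of these 3 had overlapping groups.

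Core particle lists had medians nearer to 0. Their counts stand beside shares of 15.3% lower and 13.7% higher over all genes. For U1, Sm and LSm proteins beyond the members, 5 of 17 fell and none rose (at an unadjusted p under 0.05, 5 lower and none higher), with a median of -0.13. LSM3, LSM5 and LSM6, subunits of the ring that binds U6 RNA, fell by 1.31, 0.79 and 0.59 (adjusted p = 5.1e-04, 0.0088 and 0.018). In the list of U2 and branch site proteins 1 of 12 fell, CHERP (-0.53), and 1 rose, SF3B4 (0.38), with a median of 0.12. Among U5 and tri-snRNP proteins 3 of 14 fell and 2 rose, with a median of -0.038. PRPF8, the protein at the spliceosome's catalytic centre, fell by 0.48 (adjusted p = 0.0056), while SNRNP27 (0.68) and PRPF4 (0.59), both of the tri-snRNP, rose. In the list of Prp19 complex proteins, helicases and step factors limma called none of 15 in either direction (at an unadjusted p under 0.05, none lower and 1 higher), with log2 changes from -0.097 to 0.37.

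Genes that act on SR proteins were called in both directions, at shares near those of all genes. Of 10 genes for SR protein kinases, a phosphatase and an importer 2 rose and 2 fell (20% each), where 13.7% of all genes rose and 15.3% fell. SRPK1, the cytoplasmic kinase that prepares SR proteins for nuclear import, read 356, 371 and 324 in RASv12 samples and 207, 196 and 179 in control samples, a rise of 0.80 (SE 0.098, adjusted p = 0.0014). CLK3, a nuclear SR kinase, rose by 0.77 (adjusted p = 0.010), whereas its relative CLK2 fell by 0.59 (adjusted p = 0.0035). For exon junction complex and SR-related proteins the counts were again 2 lower and 2 higher of 10, with RBM8A at -0.63, EIF4A3 at 0.43 and SAP18 at 0.32.

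In the SMN complex and snRNP assembly list 3 of 11 rose (27.3%) and 1 fell (9.09%), with a median of 0.29. Of all genes 13.7% rose and 15.3% fell. WDR77, a subunit of the methylosome that methylates Sm proteins, read 460.3, 444 and 496 in RASv12 samples and 164, 198 and 228 in control samples. It rose by 1.18 (SE 0.14, adjusted p = 0.0010), 2.27-fold higher. PRMT5, the methyltransferase of that complex, rose by 0.59 (adjusted p = 0.038), and GEMIN6, of the SMN complex that loads the Sm ring, by 0.42 (adjusted p = 0.029).

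**Figure D5:**
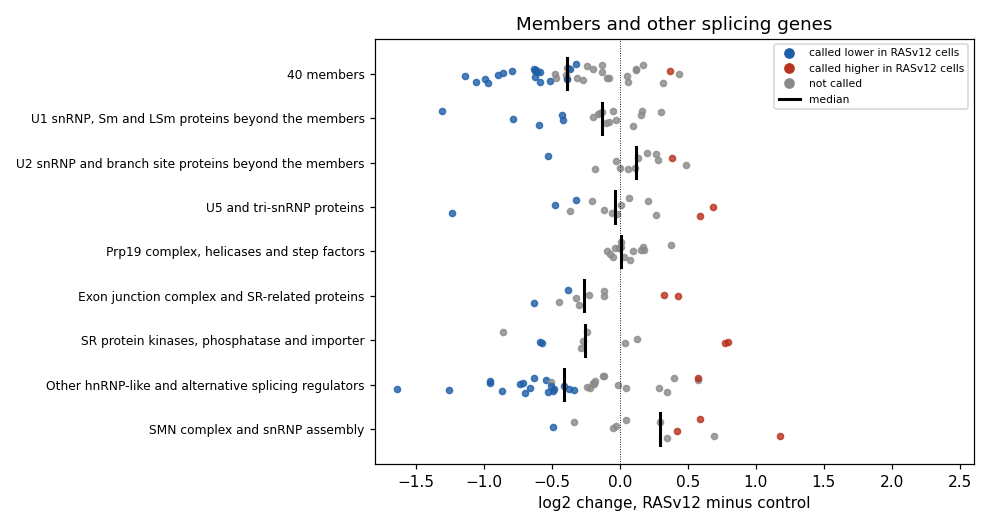
Log2 change (RASv12 minus control) of the 40 members and of the 122 measured genes of 8 other splicing lists, 1 point per gene with random vertical spread, and black bars at the medians. The members (median -0.39) and the other alternative splicing regulators (median -0.41) lie to the left of the core particle lists, and the SMN and assembly list (median 0.29) lies to the right. These shifts were not tested against each other.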

How the data were processed

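Transcript levels were measured on 6 arrays, 3 of RASv12 cells and 3 of control cells. The authors deposited 1 table of linear signal intensity per probe set, made with MAS5 per the submitters' processing notes. The scaling target is not given in the sources used here. The mean after trimming 2% at each end was 100.0 on every array, so the arrays were scaled before deposit. Array number limits the precision. Between 48.6% and 54.1% of probe sets lay above 28.0, the highest intensity among 27 low bacterial control probe sets.

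Of 22283 probe sets, 68 control probe sets were left out. By the platform annotation, 19065 had a single symbol, 1043 had more than 1 and 2107 had no symbol. Symbols were updated by gene identifier through RefSeq (GRCh38.p14), except for 12 without a match. Intensities were taken as log2(value + 16) and quantile normalized, because array medians differed by more than 0.1. Groups were compared with limma 3.58.1 in R 4.3.3 (lmFit and eBayes over all 22215 probe sets), adjusted by Benjamini-Hochberg over the brightest probe set, by mean normalized log2 value, of each of 11963 genes, or over all probe sets where a single probe set is named. The threshold was 0.05. The procedure was tested on simulated data.

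All 42 members are accounted for. Called members are given with each sample's value, and up to 3 called genes with the largest moderated t are named from each other list. Members and lists were chosen with earlier results of these data known. The motifs were searched on both strands of RefSeq promoters. Alternatives were pseudocount, scaling, filters, choice of probe set, moderation, a replicate block and omission of each sample.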

Additional observations from a re-analysis of the deposited data

How the results depend on the processing

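Of the 19 alternative settings, 2 (moderation over genes only, and leaving out _x_at probe sets) were chosen after seeing the data. The 19 called members kept direction and call under all 19 settings in 6 cases. SNRPE, HNRNPK and TRA2B lost their calls with direction kept in 12, 11 and 11 settings, the most of any. In 3 cases the direction turned: HNRNPK to 0.038 with scaling to the hybridization controls, and SNRPB to -0.18 and SNRPE to 0.26 with _at probe sets preferred, none of them called there, and the cause was not tested. Scaling to the hybridization controls gave 1037 genes lower and 2816 higher, against 1828 and 1639, with 6 members lower and 6 higher and 5 genes of the other lists lower and 34 higher. The share of rises among calls was then 73.1%, against 47.3%. A pseudocount of 1 gave 12 members lower and 0 higher, and 14 genes of the other lists lower and 5 higher. Members called higher were 2 with a pseudocount of 64, without the dimmer 50% of probe sets or with trend and robust moderation, and 0 with _at probe sets preferred. Leaving out 1 sample at a time gave 12 to 15 members lower and 0 to 1 higher, against 18 and 1. Fewest were lower without control replicate 3 (12) or control replicate 1 (13), and SNRPB lost its call without control replicate 1 or 3 or RASv12 replicate 2 or 3. Those omissions gave 16 to 22 genes of the other lists lower and 6 to 8 higher, against 32 and 11, and fewer samples were fitted in each. Same-numbered arrays did not deviate together (correlations of -0.21, -0.047 and -0.064), which gave no sign of pairing. With 3 arrays per group this cannot exclude that the samples were paired. With the replicate number as a block, 13 members were lower and 0 higher, all 13 among the 18, and 17 genes of the other lists were lower and 6 higher. At an unadjusted p under 0.05, 23 members were lower and 2 higher in the reported limma fit. The share of all genes at that threshold was not counted. It is at least the 29.0% called in either direction after adjustment. With moderation over genes only, 19 members were lower, the 18 and SRSF3.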
